A study of Mus musculus with 18 samples.

Results

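The TRP channels described here are 7 cation channels of sensory neurons, Trpv1, Trpv2, Trpa1, Trpm8, Trpm3, Trpm7 and Trpc1, chosen by gene symbol among the 22021 genes listed. Each of the 7 symbols matched 1 gene. They were followed through 16 pooled libraries of mouse dorsal root ganglia (DRG), the clusters of sensory neuron cell bodies beside the spinal cord. The mice were Nav1.8-TRAP animals on a C57BL/6J background, male and female littermates of 8 to 12 weeks, in which Cre under the Scn10a (Nav1.8) promoter turns on the EGFP-L10a ribosomal fusion of the Rosa26fsTRAP allele. Antibodies to GFP pull those ribosomes, with their mRNA, out of the homogenate (TRAP); the input is a sample of the same extract before the pulldown.

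The groups were paclitaxel TRAP, normal TRAP, paclitaxel input and normal input, with 4 biosamples in each. Paclitaxel mice, a model of chemotherapy-induced painful neuropathy, had received paclitaxel at 4 mg/kg by intraperitoneal injection every other day over 8 days, 4 injections and 16 mg/kg in all. The labels describe vehicle-dosed animals but call the other group only normal, so what those mice received is not stated for each sample. All groups carry both transgenes. The number and sex of the mice behind a biosample are not given, so p-values measure the spread between these biosamples. The design asks which transcripts are on ribosomes of Nav1.8-expressing neurons and what differs after paclitaxel.

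TRP channels are cation channels that open to temperature, chemicals, lipids or mechanical force, and several turn noxious stimuli into nerve impulses. In DRG, Trpv1 is the capsaicin and noxious heat receptor, Trpa1 the receptor for mustard oil and other reactive irritants, Trpm8 the menthol and cold receptor, and Trpm3 a heat-activated channel that also opens to pregnenolone sulphate. Trpv2 is related to Trpv1 and opens at very high temperature in transfected cells. Trpm7, a channel fused to a kinase and involved in magnesium balance, and Trpc1, a subunit of receptor-operated channels, are made in many cell types. Inflammatory mediators act on Trpv1 and Trpa1 through receptors, G proteins, phospholipase C and kinases, and Trpv1 marks peptidergic nociceptors in the adult mouse.

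In GRCm38 with GENCODE vM21, Trpv1 lies on chromosome 11 at 73234292 to 73261242 and Trpv2 on the same chromosome at 62574486 to 62600515, both on the plus strand. Trpa1 lies on chromosome 1 at 14872648 to 14918862, minus strand, and Trpm8 on chromosome 1 at 88277661 to 88389293, plus strand. Trpm3 spans 22139046 to 22995410 on chromosome 19, plus strand. Trpm7 lies on chromosome 2 at 126791565 to 126876230 and Trpc1 on chromosome 9 at 95705082 to 95750375, both on the minus strand. The libraries read the 3′ end of transcripts, and the strand setting of the counting is not stated. The 3′ end of Trpm3 lies within the antisense lincRNA C330002G04Rik, so reads of that pair cannot be told apart and Trpm3 values are uncertain.

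The 250 bases upstream of the annotated start are shown for 4 channels that differ in CpG content, picked with their pulldown results known. They are RefSeq sequences of GRCm38.p6, written 5′ to 3′ on the gene's strand, with CpG dinucleotides in capitals. Trpv1 is chr11:73233899-73234148 (plus), Trpv2 chr11:62574236-62574485 (plus, the first of 3 annotated starts), Trpm7 chr2:126876262-126876511 (minus) and Trpc1 chr9:95750349-95750598 (minus).
Trpv1: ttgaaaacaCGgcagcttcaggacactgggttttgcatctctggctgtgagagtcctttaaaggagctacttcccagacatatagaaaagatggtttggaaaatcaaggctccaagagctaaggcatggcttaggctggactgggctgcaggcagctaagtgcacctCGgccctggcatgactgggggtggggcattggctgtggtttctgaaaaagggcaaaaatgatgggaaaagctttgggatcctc
Trpv2: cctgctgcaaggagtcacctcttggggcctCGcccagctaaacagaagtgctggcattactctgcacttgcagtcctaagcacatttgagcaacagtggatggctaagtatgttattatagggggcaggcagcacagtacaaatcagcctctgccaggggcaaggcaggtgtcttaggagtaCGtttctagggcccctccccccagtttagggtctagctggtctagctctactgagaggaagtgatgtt
Trpm7: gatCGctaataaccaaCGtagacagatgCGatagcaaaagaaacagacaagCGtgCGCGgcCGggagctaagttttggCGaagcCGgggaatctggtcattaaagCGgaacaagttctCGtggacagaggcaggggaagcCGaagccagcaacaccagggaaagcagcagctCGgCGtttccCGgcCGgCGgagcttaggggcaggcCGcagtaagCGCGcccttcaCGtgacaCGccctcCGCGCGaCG
Trpc1: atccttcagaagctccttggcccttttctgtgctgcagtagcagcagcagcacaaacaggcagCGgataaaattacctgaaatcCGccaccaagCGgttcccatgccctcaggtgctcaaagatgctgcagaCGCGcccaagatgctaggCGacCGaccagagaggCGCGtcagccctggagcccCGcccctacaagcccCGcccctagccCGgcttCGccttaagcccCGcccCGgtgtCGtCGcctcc
The Trpv1 and Trpv2 windows each hold 2 CpG, against 26 in Trpm7 and 17 in Trpc1. In normal pulldowns Trpv1, Trpm7 and Trpc1 were called lower and Trpv2 higher. The first Trpm3 window, not shown, also holds 17 CpG, and Trpm3 was called in neither pulldown. The median over 32851 such windows was 6 CpG, with quartiles of 2 and 16. GC content was 50.8% for Trpv1 and 53.2% for Trpv2, against 60.4% for Trpm7 and 62.8% for Trpc1, and the median window had 52.4%. Both strands were searched for short promoter motifs. The Trpc1 window holds 3 copies of the GC box, spelled GGGCGG, which 32.74% of all windows hold. The Trpm7 window holds 1 copy of the E-box, spelled CACGTG, which 6.02% of all windows hold. The Trpm8 window, which has 1 CpG, holds 1 copy of the TATAAA element, present in 12.37% of all windows. The Trpv1 and Trpv2 windows shown hold none of the 3 motifs. These letters are a description of the windows and were not tested against the measurements.

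The values are CPM (reads scaled to a common library total over the listed genes) of 3′ ends, which count transcripts without division by length. Libraries held 4266013 to 32713504 reads, so that 3 reads, the limit that a count of 0 allows, correspond to 0.0917 to 0.703 CPM; such limits cover counting error only. All 7 channels passed the filter of 1 CPM in 4 libraries, as did 14214 genes in all. Scn10a itself averaged 1405 ± 297 CPM in paclitaxel TRAP and 1002 ± 338 in normal TRAP, against 562 ± 76.4 in paclitaxel input and 666 ± 248 in normal input (SD, n = 4 each). The summed CPM of 8 nociceptor markers was above input in every pulldown, 8979 to 11201 in paclitaxel TRAP and 8732 to 11568 in normal TRAP against 4441 to 5885 and 4758 to 7556 in the inputs of the same treatments. Singly, 7 of the 8 were called higher and 0 lower in paclitaxel, and 3 higher and 1 lower in normal. Markers of satellite glia, myelinating Schwann cells, macrophages, fibroblasts, endothelium, skeletal muscle and erythroid cells summed lower in the pulldown in 4 of 4 biosamples of each treatment, and those of large-fibre neurons in 4 of 4 paclitaxel and 3 of 4 normal biosamples. 1 library stood apart: subsample 1 of the paclitaxel TRAP pulldown of biosample 7 reached 1 CPM in 8081 genes, where the other TRAP libraries reached it in 9715 to 13228 genes.

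Trpv1 was higher on Nav1.8 ribosomes than in input in 4 of 4 paclitaxel biosamples and lower in 4 of 4 normal ones. By limma on the deposited scale only the normal change was called, and that call was lost under several alternatives. The Trpv1 pulldown levels did not overlap between the treatments. The TRAP values were 38.0, 57.4, 103 and 35.2 CPM in paclitaxel biosamples 5 to 8, against 13.9, 13.4, 16.6 and 17.6 CPM in normal biosamples 1 to 4. The lowest paclitaxel pulldown was thus 2.00 times the highest normal one, and the spread was wide in paclitaxel (58.4 ± 31.4 CPM, SD) and narrow in normal (15.4 ± 2.03 CPM, n = 4 each). The input values were 31.8, 28.1, 40.8 and 27.7 CPM in paclitaxel, against 33.7, 44.3, 45.9 and 21.3 CPM in normal, and these groups overlapped.

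Within biosamples, Trpv1 in TRAP minus input ran between 0.25 and 1.32 on the log2(CPM + 1) scale in the 4 paclitaxel pairs, and between -1.66 and -0.27 in the 4 normal pairs. Of all genes, 11.5% were above input in all 4 paclitaxel pairs and 36.4% below it in all 4 normal pairs. The mean change was 0.73 in paclitaxel (SE 0.37, limma adjusted p = 0.141), which did not pass the threshold of 0.05. In normal mice it was -1.14 (SE 0.37, adjusted p = 0.0237), which passed; the call was lost without biosample 1, 2 or 3 (adjusted p = 0.0625, 0.0838 and 0.0893) and under edgeR with TMM (-0.68, adjusted p = 0.271). The normal change also has to be read against the other genes, whose median was -0.66, so Trpv1 stood 0.48 below that median. Rescaling by median ratios or to equal quantiles took the normal change to -0.72 and -0.68, no longer past the threshold, and the paclitaxel change to 1.04 and 1.03, past it (adjusted p = 0.0459 and 0.0321).

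Between the treatments, Trpv1 in TRAP differed by 1.73 on the log2 scale (paclitaxel minus normal, SE 0.45, 95% limits 0.76 to 2.71), a 3.33-fold difference with unadjusted p = 0.00192 and adjusted p = 0.0668 over all 14214 genes. It therefore missed the threshold, which 1.82% of genes passed in that comparison. By p-value Trpv1 ranked 407 of 14214. An absence of overlap with paclitaxel higher, as in Trpv1, was found in 6.73% of genes, and one in either direction in 10.3%. A stricter filter of 5 CPM (adjusted p = 0.04) and a fit on all 16 libraries without the pairing (adjusted p = 0.00614) put the same difference past the threshold. Over all alternatives its adjusted p ran from 0.00614 to 0.44. The difference missed the threshold with median-ratio scaling (1.52, adjusted p = 0.103), quantile scaling (1.42, 0.076) and edgeR (1.70, 0.0683). With no filter (adjusted p = 0.115) and with subsample 1 alone (adjusted p = 0.138) the difference missed it too. Without biosample 7, whose subsamples had 149 and 57.1 CPM, it was 1.42 (adjusted p = 0.229), and with subsample 2 alone it was 1.52 (adjusted p = 0.0779). The share of mitochondrially encoded reads also did not overlap between these pulldowns, 0.0986% to 0.414% in paclitaxel TRAP and 0.0563% to 0.0861% in normal TRAP; its part in the Trpv1 result was not tested. Of the 8 nociceptor markers, 2 were called higher in paclitaxel TRAP than in normal TRAP and 1 for the shift. One of them in both cases was Calca, which encodes the neuropeptide CGRP of peptidergic nociceptors (1.78, adjusted p = 0.0146, and 1.72 for the shift, adjusted p = 0.0066) and which was chosen here after its values were seen; their part in the Trpv1 result was not tested. In the inputs the Trpv1 change was -0.13 (SE 0.26, 95% limits -0.69 to 0.42, adjusted p = 0.824).

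The change of Trpv1 in TRAP minus its change in input was 1.87 (SE 0.52, 95% limits 0.79 to 2.94, unadjusted p = 0.00153, adjusted p = 0.125). This did not pass either, in a comparison where 0.19% of genes did and 11.3% had an unadjusted p under 0.05. Set against the marker of the labelled cells, Trpv1 had values of 23.3, 35.8, 104 and 25.2 per 1000 Scn10a reads in paclitaxel TRAP, against 14.2, 12.4, 12.0 and 31.0 in normal TRAP. On this measure the groups overlapped, through normal biosample 4. In a pulldown, more cells of a type and more Trpv1 mRNA per cell cannot be told apart.

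**Figure D1:**
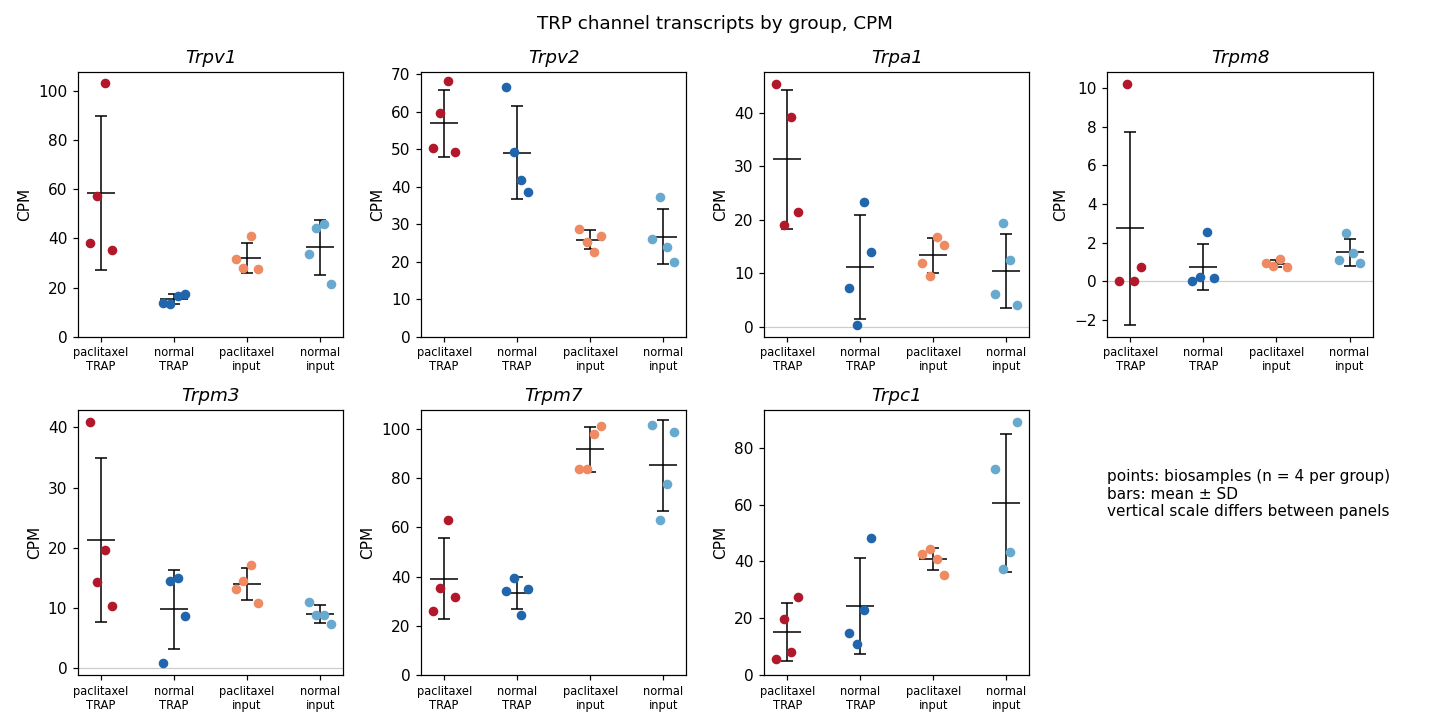
CPM of the 7 channels in each biosample (points) of paclitaxel TRAP, normal TRAP, paclitaxel input and normal input, with mean ± SD (n = 4 each) and a separate linear scale for each gene. The Trpv1 pulldowns sit at 35.2 to 103 CPM in paclitaxel and 13.4 to 17.6 CPM in normal, and all Trpm7 pulldowns of both treatments lie below the input of the same biosample.

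Trpa1 had its highest levels in paclitaxel pulldowns, with a wide spread. The values were 45.4, 19.1, 39.2 and 21.5 CPM in paclitaxel TRAP, against 7.28, 0.37, 23.3 and 13.9 CPM in normal TRAP. One normal pulldown, that of biosample 3, lay inside the paclitaxel range, and that of biosample 2 was close to the 3-read limit of 0.112 CPM. The inputs ranged between 9.46 and 16.7 CPM in paclitaxel and between 3.98 and 19.4 CPM in normal.

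Trpa1 was above input in 4 of 4 paclitaxel pairs (mean 1.11, SE 0.68, adjusted p = 0.229), as were 11.5% of all genes. In normal it was above input in 3 of 4 pairs. The normal mean of -0.31 (SE 0.68, adjusted p = 0.747) was set by biosample 2, at -3.89; without it the mean was 0.88. Paclitaxel TRAP exceeded normal TRAP by 1.92 (SE 0.84, 95% limits 0.12 to 3.73, unadjusted p = 0.0386, adjusted p = 0.262). At the unadjusted level 16.9% of all genes passed in that comparison. Without normal biosample 2 the difference was 1.07. The input change was 0.50 (SE 0.39, adjusted p = 0.511).

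Trpm8 was the scarcest of the 7 channels, near the detection limit in most pulldowns. In paclitaxel TRAP it was at 0 in biosamples 5 and 7 (both subsamples), at 0.76 CPM in biosample 8 and at 10.2 CPM in biosample 6. In normal TRAP it was at 0, 0.22, 2.53 and 0.17 CPM. The inputs were steadier, 0.76 to 1.17 CPM in paclitaxel and 0.94 to 2.51 CPM in normal. A single pulldown makes up most of each TRAP mean. The pulldown change was 0.14 in paclitaxel (SE 0.53, adjusted p = 0.862) and -0.70 in normal (SE 0.53, adjusted p = 0.314). Without biosample 6 the paclitaxel value was -0.69.

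Trpm3 ranged between 10.4 and 40.9 CPM in paclitaxel TRAP and between 0.85 and 15.0 CPM in normal TRAP, against 10.9 to 17.2 CPM in paclitaxel input and 7.27 to 10.9 CPM in normal input. The pulldown minus input change was 0.42 in paclitaxel (SE 0.63, adjusted p = 0.639) and -0.27 in normal (SE 0.63, adjusted p = 0.758), and normal biosample 1 alone, at -2.69, set the sign of the normal value, which was 0.53 without it. Paclitaxel TRAP exceeded normal TRAP by 1.27 (SE 0.83, adjusted p = 0.477). In the inputs paclitaxel exceeded normal by 0.58 (SE 0.25, unadjusted p = 0.0362, adjusted p = 0.230), with overlapping groups, where 19.1% of genes had an unadjusted p under 0.05.

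Trpv2 was the channel found higher on Nav1.8 ribosomes in both treatments. The TRAP values were 50.2, 59.7, 68.1 and 49.3 CPM in paclitaxel, and the input values of the same biosamples were 28.6, 25.4, 22.5 and 26.9 CPM. In normal mice TRAP gave 66.6, 49.1, 41.9 and 38.7 CPM, and input gave 25.95, 37.1, 23.8 and 19.9 CPM. Every pulldown exceeded every input. Of all genes, 11.5% were higher in TRAP in all 4 paclitaxel biosamples and 8.41% in all 4 normal ones. The change was 1.10 in paclitaxel (SE 0.33, a 2.14-fold difference, adjusted p = 0.0158) and 0.86 in normal (SE 0.33, 1.81-fold, adjusted p = 0.0498). The normal value lay at the threshold and was lost when any one biosample other than biosample 2 was left out (adjusted p = 0.0528 to 0.181). It was also lost with a pseudocount of 0.1 (adjusted p = 0.051) and with subsample 1 of biosample 7 alone (adjusted p = 0.113). The paclitaxel call was lost without biosample 6 or 7 (adjusted p = 0.062 and 0.0831) and with subsample 2 of biosample 7 alone (0.85, adjusted p = 0.0527).

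Trpv2 did not pass between treatments. Paclitaxel minus normal was 0.23 in TRAP (SE 0.32, 95% limits -0.47 to 0.92, adjusted p = 0.771) and -0.01 in input (SE 0.23, 95% limits -0.51 to 0.48, adjusted p = 0.981). The shift of the pulldown change was 0.24 (95% limits -0.71 to 1.19), so a difference of either sign within those limits was not resolved.

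**Figure D2:**
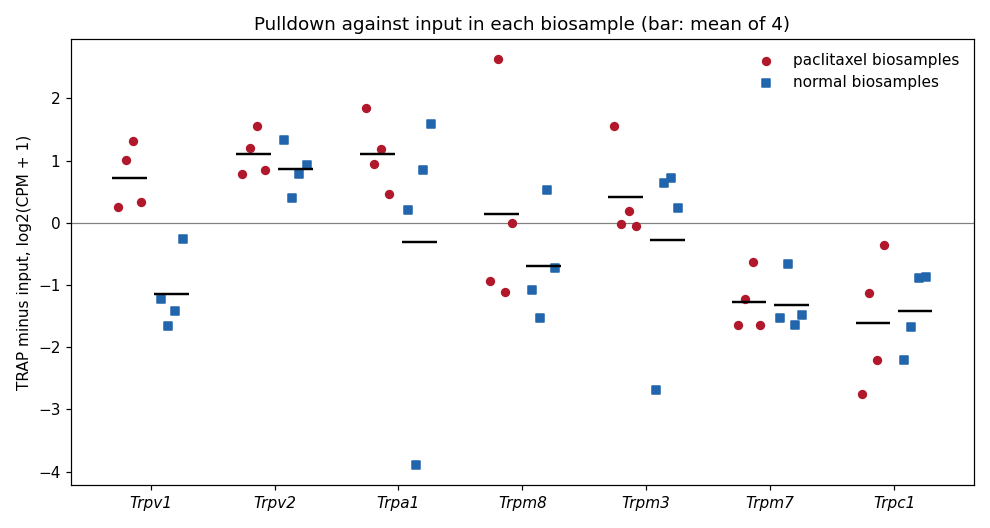
TRAP minus input on the log2(CPM + 1) scale in each paclitaxel (circles) and normal (squares) biosample, with the mean of 4 as a bar. Trpv1 lies above 0 in the paclitaxel biosamples and below 0 in the normal ones, Trpv2 above 0 and Trpm7 and Trpc1 below 0 in all 8, while Trpa1, Trpm8 and Trpm3 hold single biosamples far from the rest.

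Trpm7 was lower in the pulldown in all 8 biosamples; 36.5% of genes were lower in TRAP in all 4 paclitaxel biosamples and 36.4% in all 4 normal ones. The TRAP values were 26.2, 35.5, 63.2 and 31.9 CPM in paclitaxel and 34.3, 39.5, 24.3 and 34.8 CPM in normal. The input values were 83.9, 83.8, 97.9 and 101 CPM in paclitaxel and 102, 62.8, 77.6 and 98.9 CPM in normal. The change was -1.28 in paclitaxel (SE 0.29, adjusted p = 0.00291) and -1.33 in normal (SE 0.29, adjusted p = 0.00179). Both calls held without any one biosample and were lost under edgeR with TMM (-0.93, adjusted p = 0.0527, and -0.84, adjusted p = 0.0818). Markers of myelinating Schwann cells summed to 2058 to 2764 CPM in paclitaxel TRAP and 1904 to 3074 in normal TRAP, against 6637 to 8735 in paclitaxel input and 5838 to 10428 in normal input, and 8 of 8 of those markers were called lower in each treatment. Among all genes, 23% were called lower in paclitaxel and 24.7% in normal. In the same order, markers called lower were 6 and 7 of 8 for satellite glia and 7 and 6 of 8 for large-fibre neurons. For fibroblasts they were 5 of 6 in each, and for nociceptors 0 and 1 of 8. The part of any of these markers in the Trpm7 result was not tested. Between treatments Trpm7 changed by 0.17 in TRAP (95% limits -0.69 to 1.04) and 0.13 in input (95% limits -0.31 to 0.56), and neither value passed (adjusted p = 0.868 and 0.785).

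Trpc1 was also lower in the pulldown in 8 of 8 biosamples, beside 36.5% of all genes in all 4 paclitaxel biosamples and 36.4% in all 4 normal ones. It had 5.50, 19.7, 8.11 and 27.4 CPM in paclitaxel TRAP and 42.7, 44.4, 40.9 and 35.3 CPM in paclitaxel input. It had 15.0, 10.9, 22.9 and 48.4 CPM in normal TRAP and 72.5, 37.3, 43.5 and 89.1 CPM in normal input. The 8.11 CPM of biosample 7 averaged 0.28 CPM (3 reads) in subsample 1 and 15.9 CPM in subsample 2. The paclitaxel pulldowns lay below all paclitaxel inputs, while the normal ranges overlapped. The change was -1.61 in paclitaxel (SE 0.42, adjusted p = 0.00739) and -1.41 in normal (SE 0.42, adjusted p = 0.0152). With subsample 1 or 2 of biosample 7 alone the paclitaxel change was -2.37 or -1.33, called both times (adjusted p = 0.00997 and 0.0209). The paclitaxel call was lost without biosample 5 (adjusted p = 0.0689) and the normal call without biosample 1 (adjusted p = 0.0939). The normal call was also lost with median-ratio scaling (adjusted p = 0.086), quantile scaling (0.0695), subsample 1 alone (0.108) and without biosamples 1, 2, 5 and 6 (0.155). Under edgeR with TMM neither passed (-1.30, adjusted p = 0.0703, and -0.94, adjusted p = 0.168). Paclitaxel minus normal was -0.67 in TRAP (SE 0.69, adjusted p = 0.671) and -0.47 in input (SE 0.26, adjusted p = 0.347).

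Counted together, 1 of the 7 channels was called higher and 2 lower in paclitaxel TRAP against input, where 27.9% of all genes tested were called, 4.92% higher and 23% lower. In normal TRAP against input 1 was higher and 3 lower, beside 5.09% and 24.7% of all genes, 29.8% in all. The median change of the 7 was 0.42 in paclitaxel and -0.70 in normal, beside -0.56 and -0.66 over all genes. None of the 7 passed in the other 3 comparisons by limma, where 1.82% of genes passed in TRAP between treatments, 1.64% in input between treatments and 0.19% for the shift. At an unadjusted p under 0.05 these comparisons held Trpv1 and Trpa1 in TRAP, Trpm3 in input and Trpv1 for the shift. The shares of all genes at that level were 16.9%, 19.1% and 11.3%, in the same order. EdgeR called none of the 7 either.

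**Figure D3:**
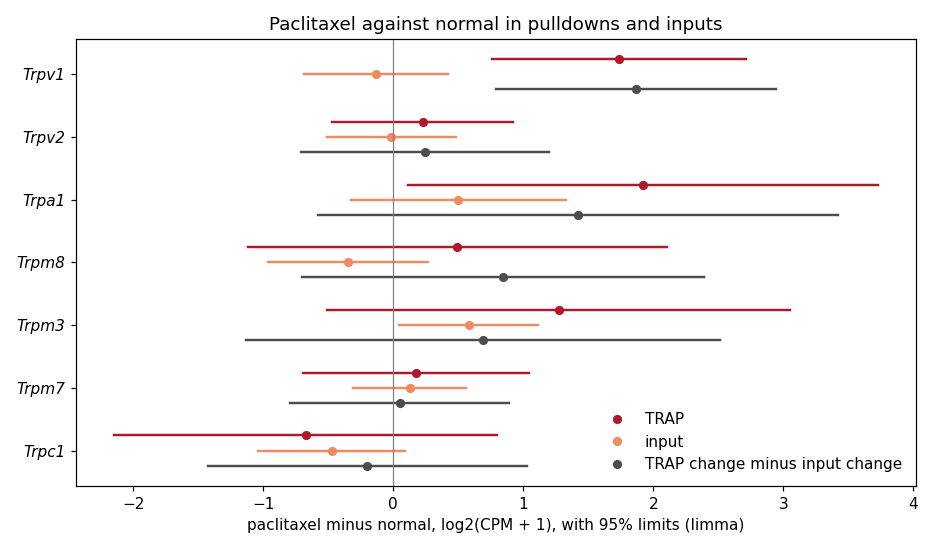
Paclitaxel minus normal change of each channel in TRAP, in input, and the TRAP change minus the input change, on the log2(CPM + 1) scale with limma's 95% limits. The limits of Trpv1 exclude 0 in TRAP (0.76 to 2.71) and for the shift (0.79 to 2.94) before adjustment over all genes. So do those of Trpa1 in TRAP (0.12 to 3.73) and of Trpm3 in input (0.043 to 1.12). Those of Trpv2, Trpm8, Trpm7 and Trpc1 include 0 throughout.

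The makeup of the channel pool differed by fraction. The 7 channels summed to 225 ± 53.7 CPM in paclitaxel TRAP and 144 ± 14.5 CPM in normal TRAP, against 219 ± 13.2 CPM in paclitaxel input and 230 ± 20.0 CPM in normal input (SD, n = 4 each). In the inputs Trpm7 was the most abundant, with 41.9% ± 3.08 of the sum in paclitaxel and 36.8% ± 5.22 in normal, followed by Trpc1. In normal TRAP Trpv2 led with 34.8% ± 10.9, Trpm7 had 23.4% ± 6.01 and Trpv1 had 10.7% ± 0.524. In paclitaxel TRAP Trpv2 had 25.6% ± 2.60 and Trpv1 24.8% ± 7.22. The Trpv1 share was 18.4% to 34.2% in paclitaxel TRAP and 10.1% to 11.3% in normal TRAP, with no overlap; these shares follow from the Trpv1 levels above and are no separate evidence.

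By group mean, Trpv1 was highest in paclitaxel TRAP, followed by normal input, paclitaxel input and normal TRAP, and among neighbours in this order only paclitaxel input and normal TRAP did not overlap. For Trpa1 paclitaxel TRAP (19.1 to 45.4 CPM) led, clear of paclitaxel input next in order. It overlapped normal TRAP (up to 23.3 CPM) and normal input (up to 19.4 CPM). The other neighbours of the Trpa1 order overlapped each other. For Trpv2 both TRAP groups led and overlapped each other, and normal TRAP and normal input did not overlap. For Trpm8, Trpm3, Trpm7 and Trpc1 every pair of neighbours in the order overlapped. How often neighbours fail to overlap among all genes was not counted.

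The genes most like each channel across the 16 pooled libraries were taken by Pearson's r of log2(CPM + 1), as a description over libraries that share fraction, treatment and depth. Trpv1 was closest to Lclat1 (r = 0.94), Emb (0.89) and Kcnip4 (0.89), each with its highest mean in paclitaxel TRAP and its lowest in normal TRAP. Emb, for example, averaged 207 CPM in paclitaxel TRAP, 68.0 in normal TRAP, 174 in paclitaxel input and 146 in normal input. Trpa1 was closest to Dgkg (0.95) and Nbl1 (0.94), and Trpv2 to H13 (0.94) and the neuropeptide gene Nmb (0.93). Trpm7 was closest to Mbp (0.94), which encodes a myelin protein, and Epb41l2 (0.94). Trpc1 was closest to Fgf2, Slc5a3 and Sema3g (all 0.94). Trpm3 was closest to Tbc1d20 (0.90), Zdhhc4 (0.87) and Cox5a (0.87), and Trpm8 to Mospd1 (0.91), Gpr85 (0.85) and Cstf2 (0.84).

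Among 21 other TRP family genes, 12 passed the filter. In paclitaxel TRAP against input 2 were called higher and 1 lower, beside 4.92% and 23% of all genes. In normal TRAP against input 1 was called higher and 4 lower, beside 5.09% and 24.7%. The normal counts were 1 higher and 3 lower with median ratios, 2 and 2 with quantile scaling, and 1 and 2 by edgeR. Mcoln1, the lysosomal channel mucolipin 1, was higher in the pulldown in both treatments, by 0.96 in paclitaxel (adjusted p = 0.0181) and 1.26 in normal (adjusted p = 0.00304).

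Trpm6, the magnesium channel related to Trpm7, was lower in TRAP in paclitaxel (-1.63, adjusted p = 0.0418) and in normal (-1.75, adjusted p = 0.0286), at 0 to 4.44 CPM in the pulldowns; both calls were lost under median-ratio scaling, quantile scaling and edgeR. Pkd2, Trpm2 and Trpv4 were lower in TRAP in normal mice, by log2 changes of -2.81, -2.16 and -1.44 (adjusted p = 0.00201, 0.00175 and 0.0173); the Trpv4 call was lost under quantile scaling and edgeR (adjusted p = 0.139 by edgeR). Trpm2, a channel opened by ADP-ribose and oxidative stress, and Mcoln1 were the only TRP genes called between the treatments by limma. Both calls were in input, where Trpm2 had 63.9 ± 21.2 CPM in paclitaxel and 26.05 ± 3.46 in normal (1.21, adjusted p = 0.0273) and Mcoln1 33.7 ± 3.62 in paclitaxel and 61.8 ± 5.24 in normal (-0.86, adjusted p = 0.0397). Of all genes tested, 1.64% were called in input between the treatments. The Trpm2 call was lost under quantile scaling (adjusted p = 0.0565). In TRAP the Trpm2 change was 2.32 (adjusted p = 0.157) and that of Mcoln1 was -1.16 (adjusted p = 0.183, and 0.0425 by edgeR). Trpv3, Trpm4, Trpc4, Trpc5, Trpc6 and Pkd2l2 passed in none of the 5 comparisons, and Trpc7, which missed the filter, averaged 3.28 CPM in paclitaxel TRAP through 1 biosample at 12.7.

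**Figure D4:**
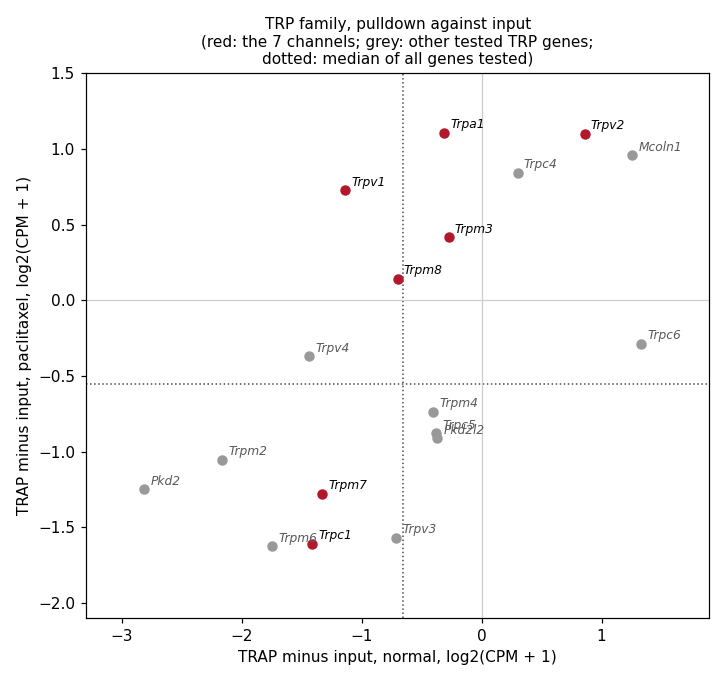
TRAP minus input change of the 7 channels (red) and of other tested TRP genes (grey), in normal biosamples (horizontal) and paclitaxel biosamples (vertical), on the log2(CPM + 1) scale; dotted lines are the medians of all genes, -0.66 and -0.56. Trpv2 and Mcoln1 lie high in both treatments, Trpm7, Trpc1 and Trpm6 low in both, and Trpv1 low in normal and above 0 in paclitaxel.

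Of 26 receptors that signal to TRP channels, 21 were tested. In TRAP against input 5 were called higher and 2 lower in paclitaxel, and 1 higher and 3 lower in normal, beside 4.92% and 23% of all genes in paclitaxel and 5.09% and 24.7% in normal. The normal balance turned to 4 higher and 1 lower with median ratios, 3 higher and 1 lower with quantile scaling and 2 higher and 1 lower by edgeR. Gabbr1, a GABA-B receptor subunit, was higher in both (1.14 and 1.23, adjusted p = 0.000106 and 2.6e-05), and Tnfrsf1a, a TNF receptor, lower in both (-2.62 and -2.56, adjusted p = 0.00392 and 0.00393). Mrgprd, a receptor of non-peptidergic nociceptors, was higher in paclitaxel pulldowns (1.96, adjusted p = 0.000293). In input between treatments Tnfrsf1a was higher (1.28, adjusted p = 0.0335) and F2rl1, the protease receptor PAR2, lower in paclitaxel (-1.39, adjusted p = 0.0418). Limma called 1.64% of all genes there. Quantile scaling lost both calls (adjusted p = 0.0594 and 0.0512) and edgeR that of Tnfrsf1a (adjusted p = 0.0593).

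All 34 kinases, G proteins and lipid enzymes listed as acting on TRP channels were tested, and 4 rose and 1 fell in paclitaxel TRAP against normal TRAP, where 1.82% of all genes tested passed. Those that rose included Gnaq, the G protein subunit that couples receptors to phospholipase C (447 CPM in paclitaxel, 179 in normal, change 1.35, adjusted p = 0.0388), the kinase Prkcd (202 and 72.8 CPM, change 1.49, adjusted p = 0.0345) and the kinase Camk2g (114 and 36.0 CPM, change 1.62, adjusted p = 0.0421). Plcb3, a phospholipase C that Gnaq activates, fell, with 208 CPM in paclitaxel and 624 in normal (-1.58, adjusted p = 0.0116). Gnaq was the only gene of the lists called for the shift of the pulldown change (1.49, adjusted p = 0.0205), a call that neither edgeR (adjusted p = 0.123) nor quantile scaling (adjusted p = 0.0771) gave. In that comparison limma passed 0.19% of all genes. With median-ratio scaling none of the 34 was called higher and 2 were called lower in paclitaxel TRAP against normal TRAP. In input none of the 34 passed between treatments by limma on the deposited scale, where 1.64% of all genes did, or by edgeR. At an unadjusted p under 0.05 limma gave 9, beside 19.1% of all genes, and 1 was called lower with median-ratio scaling. In TRAP against input 8 were higher and 1 lower in paclitaxel, and 4 higher and 11 lower in normal, beside 4.92% and 23% of all genes in paclitaxel and 5.09% and 24.7% in normal. The normal balance turned with the scaling, to 7 higher and 6 lower with median ratios and 7 higher and 2 lower by edgeR. Plcb3 and Mapk3 were higher in both treatments, Mapk3 in normal not under quantile scaling.

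All 26 proteins listed as binding or trafficking TRP channels were tested, and by limma on the deposited scale and by edgeR none passed between treatments in TRAP, in input or for the shift. Among all genes tested, limma passed 1.82%, 1.64% and 0.19% in these 3 comparisons. At an unadjusted p under 0.05 limma gave 6 in each of the 3, beside 16.9%, 19.1% and 11.3% of all genes. With median-ratio scaling 1 was called lower in input. In TRAP against input 3 were higher and 8 lower in paclitaxel, and 4 higher and 7 lower in normal, beside the same shares of all genes (4.92% and 23%, 5.09% and 24.7%). In normal, median-ratio scaling and edgeR turned the balance to 7 higher and 1 lower, and quantile scaling to 4 higher and 2 lower. Syt9, a synaptotagmin, was higher in paclitaxel pulldowns (1.07, adjusted p = 0.000308). Akap5, a scaffold that holds kinases beside Trpv1, was lower there (-3.61, adjusted p = 0.000706), with 2.73 CPM in paclitaxel TRAP and 23.2 in paclitaxel input. Tcaf1, a partner of Trpm8, was lower in normal pulldowns (-1.82, adjusted p = 8e-06), with 81.0 CPM in normal TRAP and 274 in normal input. Cybb, an NADPH oxidase subunit of phagocytes, and Tcaf2 were lower in paclitaxel pulldowns (-3.20 and -3.00, adjusted p = 0.000263 and 0.000965). The group means of these genes ran the same way in the treatment not named. In normal TRAP and normal input they were 361 and 239 CPM for Syt9 and 10.9 and 36.9 for Akap5. For Cybb they were 16.4 and 40.7 and for Tcaf2 1.97 and 6.87. Tcaf1 had 128 CPM in paclitaxel TRAP and 291 in paclitaxel input.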

How the data were processed

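Gene values were taken from the table of 18 QuantSeq 3′ libraries that the authors deposited. The submitters' processing notes name TopHat2 2.1.1 and Bowtie2 2.2.9, Cufflinks 2.2.1, FastQC 0.11.5 and the mouse build GRCm38.p4. Genes follow GENCODE vM10, per the file headers. The headers name TPM, but the deposited values are CPM: each column sums to 1000000 within rounding, and 98.0% to 99.0% of non-zero values were whole multiples of 1 step within 0.0051 CPM. A stricter step test found whole reads in 7 of the 18 columns. The steps gave the read totals used for depth and, as an alternative only, for edgeR 4.0.16.

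Input and pulldown came from 1 homogenate, so biosample was a block; their deviations from the group means correlated at r = 0.05 to 0.38. Biosample 7's 2 subsamples were averaged, and no replicates agreed within sampling noise. The 14214 genes with at least 1 CPM in 4 of 16 pooled libraries were tested on log2(CPM + 1) with limma 3.58.1 (R 4.3.3), which understates changes of low genes, with two-sided p-values adjusted over all genes (Benjamini-Hochberg, threshold 0.05). TRAP against input and its shift with paclitaxel came from 1 fit. Paclitaxel against normal was fitted per fraction. The tests were tried on simulated data. Named genes were the 7 channels, per channel the 3 most correlated genes with a mean of at least 10 CPM, the tested TRP family genes, and up to 4 called genes per list with the lowest p; the text gives a part of these, and some of them are not reported here. The members and the gene lists were chosen with earlier results of these data known. Alternatives were pseudocounts of 0.1 and 5, no filter or 5 CPM, median-ratio and quantile scaling, either subsample alone, edgeR, each biosample or biosamples 1, 2, 5 and 6 left out, and no replicate block.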

Additional observations from a re-analysis of the deposited data

Results flagged for a closer look

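Trpv1 in TRAP minus input was above 0 in all 4 paclitaxel biosamples and below 0 in all 4 normal biosamples. The mean changes were 1.87 apart on the log2 scale. Of all genes, 11.5% were above input in all 4 paclitaxel biosamples and 36.4% below it in all 4 normal ones. The limma test of the 1.87 difference had an unadjusted p of 0.00153 and an adjusted p of 0.125 (0.0956 to 0.608 over the alternatives).

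Trpm8 at 10.2 CPM in the paclitaxel TRAP library of biosample 6 stood far from the next value of its group, 0.76 CPM, with 0.926 of the group's range as the gap. Likewise 2.53 CPM in the normal TRAP library of biosample 3 stood apart from the next value, 0.22 CPM, with 0.913 of the range. The limit for singling out a value is one that chance passes in about 1 of 20 groups, both ratios lie above it, and 28 groups were looked at.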

How the results depend on the processing

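The read totals limit Trpm8 most, since 3 reads equal 0.0917 to 0.703 CPM and several of its pulldowns lie there; with 4 biosamples a group, changes of the size seen in Trpa1 and Trpm3 were not resolved. Apart from leaving out single biosamples, 330 of 380 log2 changes of the channels under the alternatives kept their direction and their side of the threshold. Counts of genes called are not part of that tally. The cause was not tested for any value below.

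Genes called in TRAP against input were 3963 in paclitaxel and 4233 in normal. In paclitaxel they were 1915 under edgeR with TMM (1148 higher, 767 lower) and 1845 without biosamples 1, 2, 5 and 6. In normal they were 2695 with quantile scaling (1307 higher, 1388 lower), 2785 with subsample 1 alone, 1864 under edgeR (1252 higher, 612 lower) and 2393 without those 4 biosamples. Genes called between treatments in TRAP were 259, and 0 with no filter (2400 at an unadjusted p under 0.05 in the main limma fit), 729 with the 5 CPM filter, 523 with quantile scaling, 100 with subsample 1, 478 under edgeR (193 higher, 285 lower), 1660 in the fit on all 16 libraries with no replicate block and 0 without biosamples 1, 2, 5 and 6. In input they were 233, and 0 with no filter, 107 with quantile scaling, 144 under edgeR, 1 with no replicate block and 126 without the 4 biosamples. For the shift 27 genes were called, and 13 with a pseudocount of 0.1, 0 with no filter, 6 with quantile scaling, 5 and 17 with subsample 1 and 2 alone, 0 under edgeR, 0 with no replicate block (1611 at an unadjusted p under 0.05 in the paired limma fit) and 9 without the 4 biosamples. Of the 7 channels, 3 were called in paclitaxel pulldowns (1 under edgeR) and 4 in normal pulldowns (2 with median-ratio scaling, 2 with quantile scaling, and 1 each with subsample 1, under edgeR and without the 4 biosamples). Between treatments in TRAP 1 of 7 was called with the 5 CPM filter and 1 in the fit with no replicate block, Trpv1 both times. Median-ratio, quantile and edgeR scaling moved the median of all genes in TRAP against input to -0.29, 0.04 and -0.36 in paclitaxel and to -0.33, 0.00 and -0.44 in normal, from -0.56 and -0.66.

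Leaving out 1 biosample at a time gave 2049 to 4377 and 2327 to 4356 genes called in paclitaxel and normal pulldowns, 0 to 491 between treatments in TRAP, 0 to 831 in input and 0 to 86 for the shift, and 2 to 3 and 1 to 3 channels in the pulldowns. These log2 changes turned sign among them: Trpm8 in paclitaxel pulldowns (-0.69 to 0.56), Trpa1 (-0.95 to 0.88) and Trpm3 (-0.60 to 0.53) in normal pulldowns, Trpm8 (-0.31 to 0.90) and Trpm7 (-0.078 to 0.33) between treatments in TRAP, Trpv2 (-0.14 to 0.15) and Trpm7 (-0.011 to 0.22) in input, and Trpm3 (-0.11 to 1.02), Trpm7 (-0.17 to 0.27) and Trpc1 (-0.62 to 0.18) for the shift.

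No called channel turned sign under any alternative. Of those not called, in paclitaxel pulldowns Trpm8 was -0.88 with a pseudocount of 0.1, -1.70 under edgeR and -0.56 without biosamples 1, 2, 5 and 6. In normal pulldowns Trpa1 was 0.027 with median-ratio scaling, 0.67 with quantile scaling, 0.45 under edgeR and 1.22 without the 4 biosamples. Trpm3 was 0.081, 0.73, 0.23 and 0.47 under the same settings, and Trpm8 0.35 with quantile scaling. Between treatments in TRAP Trpv2 was -0.064 under edgeR, Trpm8 -0.62 without the 4 biosamples, and Trpm7 -0.047, -0.026 and -0.020 with median-ratio scaling, quantile scaling and edgeR. In input Trpv2 was 0.011 with subsample 2 and 0.17 without the 4 biosamples, Trpv1 0.10 without them, and Trpm7 -0.027 under edgeR. For the shift Trpm7 was -0.070, -0.13 and -0.090 under those scalings, Trpv2 -0.0062 and Trpc1 0.084 with subsample 2, and Trpa1 -0.40, Trpm8 -0.46 and Trpm3 -0.41 without the 4 biosamples.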
